A study of Mus musculus with 2 samples.

Results

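The receptors described here are olfactory receptor genes outside the class I number range that gave a clear signal on at least 1 of 2 arrays of mouse nasal mucosa. They were chosen by symbol, Olfr followed by a number outside the run of numbers that class I receptors hold, and were selected on signal, the higher of a gene's 2 log2 signals being 6.3 or more. Of 965 such genes measured with a row of their own, 69 met this, out of 22180 named genes in all. Total RNA came from the nasal mucosa of C57BL/6 mice aged 4 to 6 weeks. One array was of mice given papain, the cysteine protease of papaya and a model allergen, and the other of mice given phosphate-buffered saline (PBS), the vehicle, both labelled 3 days. Per the series' design text, 4 samples were pooled to make a specimen, with no number stated per array. The title speaks of rhinosinusitis after exposure to a cysteine protease, and the arrays compare the mucosa with and without that exposure.

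Odorant receptors are G protein-coupled receptors that olfactory sensory neurons carry on their cilia. Each mature neuron is known to express 1 receptor gene, from 1 allele, and neurons with the same receptor are scattered within a zone of the epithelium. The level of a receptor in bulk mucosa therefore depends on how many neurons chose it and on how much RNA each made, and fewer cells of a type and less RNA per cell cannot be told apart here. Mammalian receptors fall into class I, which resembles the receptors of fish, and the larger class II. The septal organ is a separate patch of olfactory epithelium low on the nasal septum, whose neurons express a narrow set of receptors.

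Values are log2 signals, and a ratio is the papain value minus the PBS value. With 1 array per group there was no replicate check and no test, so every difference below is one between these 2 arrays. The threshold used the higher of both signals, and a receptor that met it in 1 array had to be higher there. The ratios of the 69 receptors are for this reason a description. Olfactory receptors share sequence, so the value of a single gene is uncertain. A set of 28 genes of other tissues, chosen with results of these arrays known, had a median of 5.18 after papain and 5.09 after PBS, and a 95 percentile over both of 6.12. Odf1, in that set, read 10.48 and 10.91, brighter than any of the 69. The 95 percentile lay between the readings of Apoa1, 6.13 and 6.12, so a single gene fixed it. A receptor signal under that 95 percentile has a denominator or numerator of uncertain size.

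Olfactory tissue was present in both specimens. Omp, the marker protein of mature olfactory neurons, read 9.87 after papain and 9.94 after PBS, and Stoml3, a protein of their cilia, read 12.27 and 12.71. The subfamily names in the RefSeq gene table (GRCm38.p6), in which all 69 symbols were found unchanged, went against the class of 2 receptors. Olfr65 is also named MOR1-1 and Olfr68 MOR22-3, and subfamilies MOR1 to MOR42 are class I. Olfr65 read 6.50 after papain and 6.22 after PBS, and Olfr68 read 6.26 and 6.39. RefSeq annotated 68 of the 69 as protein coding and 1, Olfr1174, as a pseudogene.

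The number of receptors with clear signal differed between the 2 arrays. The threshold was met in the PBS array by 58 receptors and in the papain array by 35, of which 24 met it in both. No share over all named genes is given beside these counts, so they are not read as particular to receptors. In all, 15 of the 69 were lower after papain by 2-fold or more and 1 was higher by as much, which is 21.7% and 1.45% of them. Among all 11665 named genes at 6.3 or more, the share at least 2-fold lower was 0.386% and the share at least 2-fold higher 1.59%. Among 9742 genes of the members' signal range outside the olfactory, vomeronasal and trace amine receptor families, these shares were 0.267% and 0.79%. The median ratio of the 69 was -0.31, with quartiles of -0.93 and 0.13, against a median of -0.10 over the 11665 genes and -0.11 over the 9742. Ratios below 0 were found for 48 of the 69, or 69.6%, and for 64.2% of the 11665 genes. Because the rule used these same signals, the shares are set side by side and nothing is read from them.

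**Figure D1:**
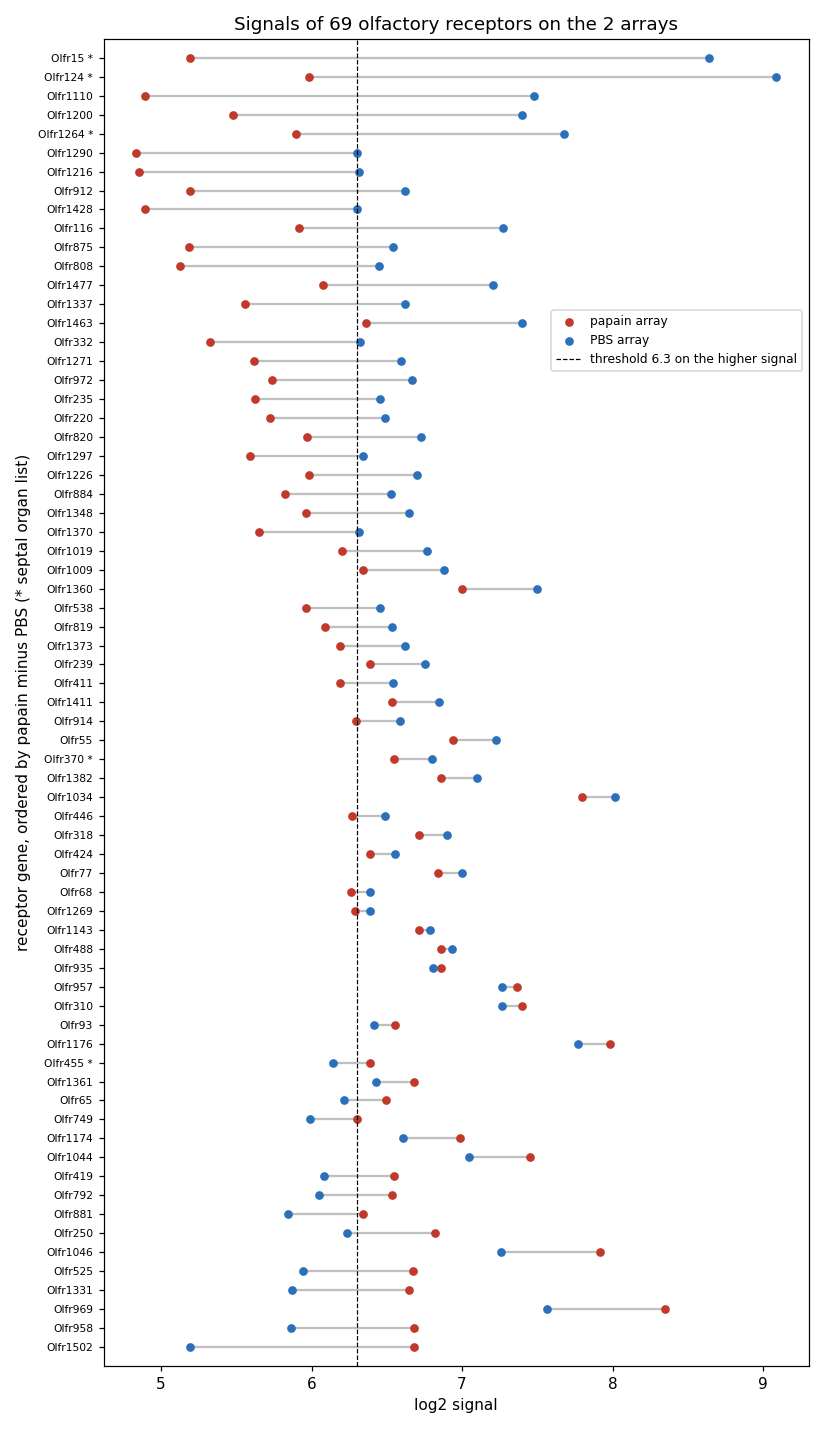
Log2 signals (horizontal axis) of the 69 receptors (vertical axis), ordered from the lowest to the highest papain minus PBS ratio, with the papain array in red, the PBS array in blue and a grey bar between them; the dashed line is the threshold of 6.3, and asterisks mark receptors on the septal organ list. Olfr15 and Olfr124 have the longest bars, and 24 receptors have both points at or right of the line.

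The largest differences lay in a pair of septal organ receptors. Olfr124, also named SR1 and MOR256-3, is the receptor known as the most common one of the septal organ and responds to many odorants. It read 5.98 after papain and 9.09 after PBS, the highest PBS signal of all 69, and was 8.62-fold lower after papain. Olfr15, or MOR256-17, another receptor of that organ, read 5.19 and 8.64, the next highest PBS signal, and was 10.9-fold lower. In the papain array they ranked 46 and 63 of the 69 by signal. Both papain signals were under the 95 percentile of the genes of other tissues, so the folds are of uncertain size, while both PBS signals stood well above it.

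Olfr1110 (MOR172-4) followed, a receptor outside the septal list, which read 4.89 after papain and 7.48 after PBS and was 6.01-fold lower. The 300 bases around the annotated RefSeq starts of these 3 receptors, from 250 before to 50 after, are shown because they are the 3 with the largest differences. Capitals mark TAATTA in Olfr124, a site of the kind that LIM homeodomain factors such as Lhx2 bind, and the start codon ATG in Olfr15, whose gene model begins at its coding sequence. Olfr1110 held none of the motifs searched. The windows are from GRCm38.p6 at chr16:3838725-3839024 on the plus strand for Olfr15, at chr17:37804819-37805118 on the plus strand for Olfr124 and at chr2:87140184-87140483 on the minus strand for Olfr1110.
Olfr15: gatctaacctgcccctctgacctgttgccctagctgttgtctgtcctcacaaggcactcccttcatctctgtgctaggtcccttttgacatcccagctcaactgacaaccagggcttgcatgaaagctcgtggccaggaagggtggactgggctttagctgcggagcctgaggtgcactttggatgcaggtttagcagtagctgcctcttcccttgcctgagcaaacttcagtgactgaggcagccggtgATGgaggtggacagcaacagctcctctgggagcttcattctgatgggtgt
Olfr124: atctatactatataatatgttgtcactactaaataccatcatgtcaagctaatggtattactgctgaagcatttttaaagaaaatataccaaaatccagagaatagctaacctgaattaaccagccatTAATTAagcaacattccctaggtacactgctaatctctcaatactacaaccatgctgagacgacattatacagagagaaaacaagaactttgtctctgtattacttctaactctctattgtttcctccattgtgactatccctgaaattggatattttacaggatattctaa
Olfr1110: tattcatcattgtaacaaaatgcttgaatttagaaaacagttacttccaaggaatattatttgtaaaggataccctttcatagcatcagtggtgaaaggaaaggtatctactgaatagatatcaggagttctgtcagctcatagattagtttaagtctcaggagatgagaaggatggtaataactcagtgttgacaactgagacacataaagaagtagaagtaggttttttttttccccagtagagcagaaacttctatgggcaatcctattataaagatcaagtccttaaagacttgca

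Windows were on hand for 57 of the 69 receptors, and 40 of these 57 genes had ATG where the last 50 bases of a window begin, so that they lie before a coding sequence and not before a known transcription start. Motifs were searched on both strands and may overlap one another, and a gene with several windows was counted once. The core CCCNNGGG, bound by the Ebf factors of olfactory neurons, was found in 1 of the 57 genes, in 3.005% of 832 class II genes and in 15.4% of 27025 genes. TAATTA was found in 9 of the 57, or 15.8%, in 19.4% of the class II genes and in 6.12% of all genes. TAATGA was found in 13 of the 57, or 22.8%, in 28.8% and in 11.3%. Of the 13 receptors at least 2-fold lower with a window, 2 held TAATTA and 4 held TAATGA. The shares of the 3 motifs among the 57 are set beside those of class II genes with no test, and nothing is read from their differences.

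The other receptors at least 2-fold lower had smaller differences. Olfr1200 (MOR225-12) read 5.48 after papain and 7.40 after PBS, a ratio of -1.92. Olfr1264 (MOR236-1), the third septal organ receptor among the lower ones, read 5.89 and 7.68, a ratio of -1.78. Beyond these, the ratios lay between -1.47 and -1.04, and the PBS signals ran from 6.304 for Olfr1290 to 7.40 for Olfr1463. Olfr1290 read 4.83 after papain and 6.304 after PBS. Olfr1216 read 4.85 and 6.32. Olfr912 had 5.19 and 6.62. All 3 met the threshold in the PBS array alone, with signals there no higher than the median of the 69, 6.62.

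Signals of Olfr1428 were 4.89 after papain and 6.304 after PBS. For Olfr116 they were 5.92 and 7.27, and for Olfr875 they were 5.19 and 6.54. These 3 had ratios of -1.41, -1.36 and -1.35, close to one another at different brightness. Olfr808 read 5.12 against 6.45 in PBS, and Olfr1477 6.08 against 7.20. Olfr1337 read 5.56 against 6.62. Olfr1463, at 6.36 against 7.40, was the 1 receptor of the 15 at or above the threshold in both arrays. Its ratio of -1.04 was the smallest of the 15.

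Across the 15, the papain signals ran from 4.83 to 6.36 with a median of 5.19, and the PBS signals from 6.304 to 9.09 with a median of 7.20. The papain signal was under the 95 percentile of the genes of other tissues for 14 of the 15, and it was under their median for 5, Olfr1110, Olfr1290, Olfr1216, Olfr1428 and Olfr808. All 15 PBS signals were above that 95 percentile, as the threshold of 6.3 requires of a receptor lower after papain. Across the 15, only the papain signal of Olfr1463 reached into the range of the PBS signals. The other 14 met the threshold in the PBS array alone, so the rule itself keeps their signals apart.

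Olfr1502 (MOR211-1) was the 1 receptor higher after papain by 2-fold or more. It read 6.68 after papain and 5.19 after PBS, 2.80-fold higher, with a PBS signal near the median of the genes of other tissues. The other 10 receptors that met the threshold in the papain array alone had ratios from 0.24 to 0.81, with Olfr958 at 6.68 against 5.87 and Olfr1331 at 6.64 against 5.87. Those 11, Olfr1502 included, had a median ratio of 0.50, and the 34 that met it in the PBS array alone had a median of -0.88, directions that the rule itself gives them.

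**Figure D2:**
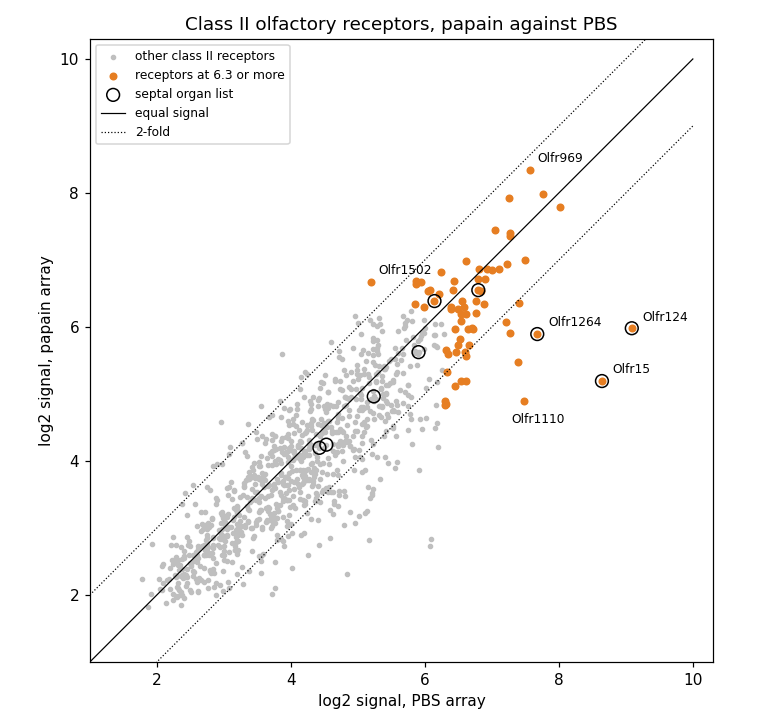
Log2 signal in the PBS array (horizontal) against the papain array (vertical) for 965 class II receptors, with the 69 at 6.3 or more in orange, septal organ receptors circled, a solid line of equal signal and dotted lines at 2-fold. Olfr15, Olfr124 and Olfr1264 lie under the lower dotted line, and the other circled receptors lie near the solid line.

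The 24 receptors that met the threshold in both arrays had ratios from -1.04 to 0.78 with a median of -0.11. Meeting it in both left out 14 of the 15 lower receptors, so this narrow range is one that the rule itself gives. Olfr969 (MOR171-7) was the brightest by mean signal and read 8.34 after papain and 7.56 after PBS. Olfr1034 read 7.80 and 8.02, and Olfr1176 (MOR174-5) read 7.98 and 7.77. These 3 were the brightest by mean signal, and none differed by 2-fold. Olfr1046 read 7.92 after papain against 7.26, a ratio of 0.66. Olfr310 had 7.40 against 7.27, and Olfr957 had 7.36 against 7.26.

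Olfr1044 read 7.45 after papain and 7.05 after PBS, Olfr1360 read 6.997 and 7.499, and Olfr55 read 6.94 and 7.22. Of the 10 brightest by mean signal, Olfr124 alone was past 2-fold. In the papain array 7 receptors reached 7 and 1 reached 8. In the PBS array 18 reached 7 and 3 reached 8, these 3 being Olfr124, Olfr15 and Olfr1034. No share over all named genes is given for these counts either, and they are not read as particular to receptors. In the papain array the brightest were Olfr969, Olfr1176, Olfr1046 and Olfr1034, none of them on the septal organ list.

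In all, 53 receptors lay within 2-fold, 33 with ratios below 0 and 20 above, from -0.996 for Olfr332 to 0.81 for Olfr958. Olfr1019 (MOR180-1), a receptor for the fox odour component trimethylthiazoline, read 6.20 after papain and 6.77 after PBS. Olfr446 was the 1 member with 2 rows. Its brighter row read 6.27 after papain and 6.49 after PBS, and its other row read 4.92 and 4.11, a ratio of 0.82 that ran the other way at a lower signal. Just inside the threshold lay Olfr749, at 6.303 after papain and 5.99 after PBS, Olfr1290 and Olfr1428. Just outside lay Olfr1030, at 5.90 and 6.28, Olfr115, at 5.35 and 6.25, and Olfr8, at 6.05 and 6.24.

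A list of 9 receptors of the septal organ was looked up by subfamily name, after the low ratios of Olfr15 and Olfr124 were known. The list was written from general knowledge of that organ and was not checked against a source, and each septal label here rests on it. All 9 were measured and 5 were among the 69. Of the 9, 8 had ratios below 0 and 3, Olfr15, Olfr124 and Olfr1264, were at least 2-fold lower, and among all 965 class II receptors 61.9% had ratios below 0 and 9.33% were at least 2-fold lower. Their median ratio was -0.28, against -0.14 over the 965. Olfr370 (MOR267-16) read 6.55 after papain and 6.80 after PBS. Olfr455, matched only through the pseudogene name MOR0-2P, read 6.39 and 6.14 and was the 1 above 0. The other 4 were under the threshold. Olfr279 (MOR122-1) read 5.62 and 5.91, and Olfr140 (MOR235-1) read 4.96 and 5.24. Olfr1509 (MOR244-3), a receptor for the sulfur compound of male mouse urine, read 4.24 and 4.53, and Olfr281 (MOR160-5) read 4.20 and 4.43. The 3 past 2-fold had the brightest PBS signals of the 9, and the other 6 had ratios between -0.29 and 0.24.

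Receptors of 1 sequence subfamily had ratios of different sizes. Subfamily MOR256 gave the most members, 7 of its 48 measured genes. Besides Olfr15 and Olfr124, these were Olfr1370 at a ratio of -0.66, Olfr1360 at -0.50, Olfr1382 at -0.24, Olfr93 at 0.13 and Olfr1361 at 0.25. Of all 48, 6 were at least 2-fold lower and 0 higher, with a median of -0.20. Over all 965 class II receptors 90, or 9.33%, were at least 2-fold lower and 18 higher, with a median of -0.14. Olfr1383 (MOR256-56), under the threshold, read 2.84 after papain and 6.09 after PBS, and its ratio of -3.25 lay between those of Olfr15 and Olfr124. Its papain signal was under the median of the genes of other tissues, and its PBS signal was under their 95 percentile. That ratio is therefore of uncertain size.

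Other subfamilies with several members showed smaller or mixed differences. MOR171 gave 4 members, Olfr972, Olfr935, Olfr957 and Olfr969, with ratios from -0.93 to 0.78. MOR267 gave 4, Olfr239, Olfr55, Olfr370 and Olfr419, from -0.37 to 0.47. Both members of MOR202, Olfr1477 and Olfr1463, were among the 15 lower ones. Of the 30 measured genes of that subfamily 4 were at least 2-fold lower and 1 higher, where 9.33% of class II receptors were lower by as much. MOR165 gave Olfr912 and Olfr914, at -1.43 and -0.29, and all 8 of its measured genes had ratios below 0, 3 of them at least 2-fold lower, beside the 61.9% and 9.33% of class II receptors given above. That subfamily was picked for its counts.

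Receptor genes lie in clusters, and the order of genes in the RefSeq table gives their neighbours. The 15 lower receptors had 23 measured receptor genes directly beside them within 500000 bases, and 0 of these 23 were among the 69, which hold 7.15% of class II genes. Of the 23, 18 had ratios below 0 and 3 were at least 2-fold lower, Olfr874 at -1.66, Olfr910 at -1.21 and Olfr1215 at -1.01. The median ratio was -0.30. Over the 965 class II receptors 61.9% had ratios below 0 and 9.33% were at least 2-fold lower, with a median of -0.14. Median signals of the 23 were 3.22 after papain and 3.97 after PBS, so most of their ratios are no measure of transcript. Beside Olfr124, Olfr123 read 4.85 after papain and 4.54 after PBS, and Olfr125 read 2.42 and 3.27. Beside Olfr1264, Olfr1263 read 2.84 and 2.93 and Olfr1265 read 3.03 and 3.72. Olfr115, beside Olfr116, came nearest the threshold, at 5.35 and 6.25. Where members did adjoin, Olfr957 and Olfr958 had ratios of 0.10 and 0.81, Olfr55 and Olfr239 had -0.28 and -0.37, and Olfr1361 and Olfr1360 had 0.25 and -0.50.

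**Figure D3:**
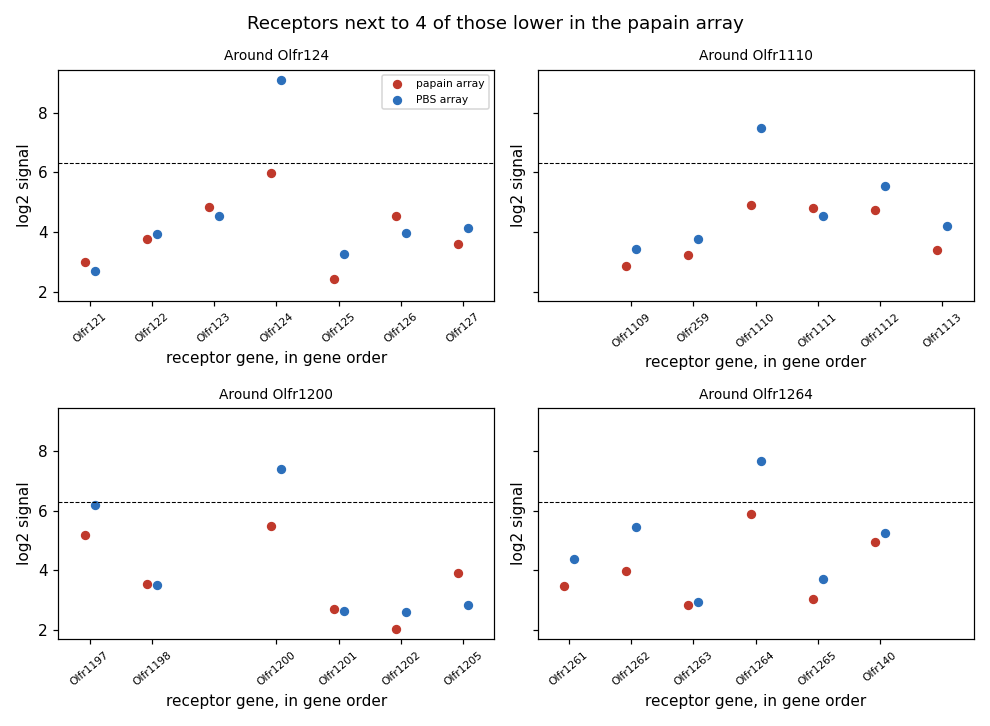
Log2 signal (vertical) of receptor genes in RefSeq gene order (horizontal, up to 3 genes to either side) around Olfr124, Olfr1110, Olfr1200 and Olfr1264, papain in red and PBS in blue, with the threshold of 6.3 dashed; genes with no row of their own are left blank. In each panel the named receptor is the only gene with a point above the line, and it is in the PBS array.

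Class I receptors were held to the same threshold. Of 123 measured by the number range, 23 were at 6.3 or more, with a median ratio of 0.24. Their lowest was Olfr661, at 6.23 after papain and 7.17 after PBS, and their highest Olfr596, at 7.37 and 5.71. None of the 23 fell by 2-fold or more after papain, and Olfr596 alone rose by as much. Without a signal threshold, 3 of the 123 fell by that amount and 3 rose. Over the 11665 named genes at 6.3 or more, 0.386% fell by that amount. Finding none among 23 genes therefore does not set class I apart. Of the 15 trace amine-associated receptors (Taar), another olfactory family, 1 was at least 2-fold lower and 0 higher, with a median ratio of -0.03 and median signals near those of genes of other tissues. The difference between the classes was not tested.

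The genes that olfactory neurons use to transduce odours had small differences. Of 12 listed markers of mature olfactory neurons 10 were measured, and 9 of these had ratios below 0. None reached 2-fold, and the median was -0.29. Among the 11665 named genes at 6.3 or more, 64.2% had ratios below 0, with a median of -0.10. Cnga2, the main subunit of the olfactory cation channel, had the lowest ratio at -0.57, and Gnal, the G protein that the receptors activate, had -0.47. Cngb1, another channel subunit, had the highest at 0.14, and Omp had -0.08. The 7 measured genes of immature neurons and progenitors had a median of 0.06, from -0.25 for Neurog1 to 0.99 for Gng8, a G protein subunit of immature neurons.

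Most receptor trafficking genes lay on the other side of 0. Of 6 measured, 4 had ratios above 0 and none reached 2-fold. Rtp1 and Rtp2, which carry receptors to the cell surface, had 0.45 and 0.54, while Reep6 had -0.33 and Reep2 0.63. Among 21 genes of receptor choice and its feedback, 12 had ratios below 0 and 9 above, with a median of -0.10, as over the 11665 genes, and none past 2-fold. Lhx2, Ldb1 and Ebf1, which act at receptor enhancers, had 0.18, -0.35 and 0.57, and the extremes were Nfix at -0.65 and Emx2 at 0.59.

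Zonal and activity genes were measured alongside. The 3 genes of the dorsal zone, Nqo1, Acsm4 and Robo2, had ratios of 0.21, 0.15 and 0.17, and the ventral genes Ncam2 and Nrp2 had -0.03 and -0.08. Of 7 genes that depend on activity in olfactory neurons, 3 had ratios below 0. S100a5, a calcium-binding protein that odour input raises, read 10.21 after papain and 11.27 after PBS and was the 1 past 2-fold, and Pcdh10 had the highest ratio at 0.80.

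Markers of other cell types were measured too. All 7 vomeronasal neuron markers had ratios above 0, 3 of them at least 2-fold higher, with a median of 0.83 and signals from 7.04 to 10.24 after papain and from 3.31 to 10.15 after PBS. Of 176 Vmn1r receptors 113, and of 109 Vmn2r receptors 86, were higher after papain by 2-fold or more. Among the 11665 named genes at 6.3 or more this share was 1.59%, a threshold to which these 2 families were not held. Median signals were 4.93 after papain and 3.23 after PBS for Vmn1r, and 6.12 and 3.38 for Vmn2r. Both PBS medians were under that of the genes of other tissues, 5.09, so many of these folds are of uncertain size. Of 7 sustentacular cell markers 5, and of 7 respiratory epithelium markers 5, had ratios below 0, with medians of -0.07 and -0.28 and none past 2-fold, where 64.2% of the 11665 genes were below 0 with a median of -0.10. The part of the vomeronasal difference, and of the amount of septal organ in each specimen, in the receptor ratios was not tested.

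**Figure D4:**
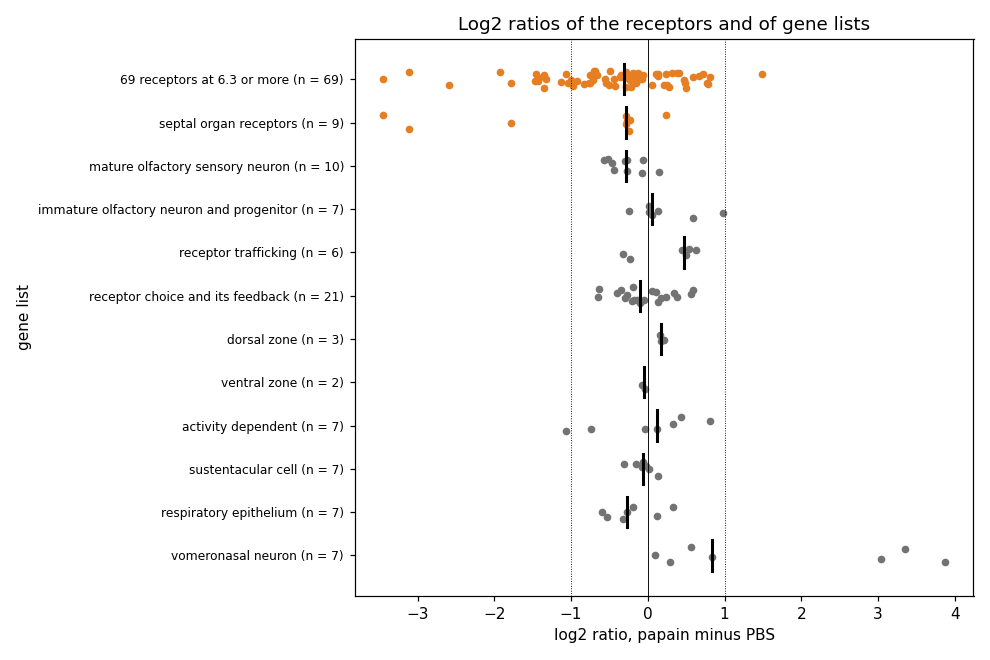
Log2 ratios, papain minus PBS (horizontal), of the 69 receptors, the septal organ receptors and 10 gene lists (vertical, with the number measured); each point is a gene, black bars are medians, and dotted lines are 2-fold. The receptors spread from -3.45 to 1.48, while the mature neuron markers lie between -0.57 and 0.14.

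Receptors known from other work were mostly under the threshold, as were class II receptors at large. Of 15 well-studied class II receptors 13 had a row of their own. Of these 13, 3 were among the 69, Olfr15, Olfr124 and Olfr1019, where the 69 hold 7.15% of class II genes. Median signals of the 13 were 4.83 after papain and 4.58 after PBS, against 3.95 and 4.16 over the 965 class II receptors. Olfr17 (P2) read 4.83 after papain and 6.16 after PBS, a ratio of -1.33, and Olfr73, a eugenol receptor, read 5.23 and 6.06. The highest ratio, 0.36, was that of Olfr1507 (MOR28), at 3.73 and 3.36, both under the median of the genes of other tissues. Olfr151 and Olfr160 share a row and have no value of their own here.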

How the data were processed

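An Affymetrix Mouse Gene 2.0 ST array was run for each group, 1 apiece. The authors deposited log2 signals for 41345 rows, a scale read from the values, with medians of 5.70 for papain and 5.64 for PBS. The submitters' processing notes list Transcriptome Analysis Console 4.0. Background correction and normalization were not given in the sources used here. Rows with 1 symbol were used, and the brightest row stood for a gene. The members and lists were chosen with earlier results of these data known. Named were all members past 2-fold, the 10 brightest, those at the threshold, members with several rows, and list members, with each list's extremes. Other genes named, such as Olfr1383 and subfamily and cluster neighbours, were chosen after their values were seen. No test was possible with 1 array per group, and their number limits the precision. The SD of a row's log2 ratio among rows of 1 gene, over 1082 genes, was 0.32, which is not the spread between animals. Alternatives changed normalization, rows, threshold and fold. Counting was tested on simulated data. Motifs were chosen after the ratios were known. Python 3.11.15, pandas 2.3.3, numpy 2.4.6, statsmodels 0.14.6 and matplotlib 3.10.9 were used.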

Additional observations from a re-analysis of the deposited data

How the results depend on the processing

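The counts of 15 receptors at least 2-fold lower and 1 higher moved with the thresholds. With a signal threshold of 7 they were 8 and 0 of 18, with 5.8 they were 26 and 3 of 128, and with the mean of both signals at 6.3 or more they were 7 and 0 of 45. At 1.5-fold they were 26 and 6, and at 3-fold 5 and 0. Quantile normalization, centring, loess, averaged rows and added shared rows gave 15 to 17 lower and 1 higher. Leaving out class I names gave 15 and 1, and leaving out the septal organ receptors 12 and 1, both chosen after seeing the data. The median ratio stayed between -0.39 and -0.22. Of 16 receptors past 2-fold, 1, Olfr1463, fell under it with loess, at -0.92. No paired analysis was possible because each group was 1 array.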

Other observations

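Rows that list more than 1 symbol, an olfactory receptor among them, entered no count above except the alternative that added shared rows. Of 21 such rows 3 were at 6.3 or more, each listing several receptor genes. The row of Olfr177 and Olfr175 read 3.76 after papain and 6.43 after PBS, a ratio of -2.67, larger in size than that of Olfr1110. Its papain signal was under the median of the genes of other tissues, so that ratio is of uncertain size. The row shared by Olfr247 and Olfr819 read 6.63 and 6.54, a ratio of 0.09, while the row of Olfr819 alone had -0.44. The row shared by Olfr1381, Olfr1373, Olfr1380, Olfr1371 and Olfr1382 read 6.22 and 6.69, a ratio of -0.47, and the rows of Olfr1373 and Olfr1382 alone had -0.43 and -0.24.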
